A study of Mus musculus with 12 samples.

Results

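The 9 genes described here encode core components of hepatic insulin signalling: the receptor gene Insr, the receptor substrate genes Irs1 and Irs2, the lipid kinase subunit gene Pik3r1, the kinase genes Akt1 and Akt2, the transcription factor genes Foxo1 and Foxo3, and the receptor inhibitor gene Grb14. They were chosen by name and role, out of 18193 genes that the array names. The rule picks no gene by its measured value, though earlier results of these data were known. Livers of 12 fasting C57BL/6 mice were compared, 4 per group and 1 array per liver. Feeding began at 8 weeks of age and lasted 8 weeks, with the MCD+HF diet plus 0.1% metformin (MCD+HF+Met), the MCD+HF diet alone, or normal chow (NC). MCD+HF means a high-fat diet without methionine or choline, which is used to produce steatohepatitis in mice. Metformin is a biguanide that lowers blood glucose. No chow-fed group received it here, so its effect was measured only on top of the MCD+HF diet.

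Insulin binds its receptor on hepatocytes, the receptor phosphorylates its substrate proteins, and these recruit phosphatidylinositol 3-kinase, whose lipid product brings AKT kinases to the membrane. AKT phosphorylates FOXO factors and so keeps them out of the nucleus, which lowers the transcription of gluconeogenic genes, while lipogenic genes are raised. The arrays read the RNA of these genes and not the phosphorylation that carries the signal.

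A gene was read by its probe set, a group of short probes summarised as 1 signal, and where a gene had several the brightest over all arrays was used. Signals are on a linear scale with an array average of 100. They can be compared between mice but not between genes. Changes are differences of log2(signal + 10), which understates those of dim probe sets, and limma fitted the 3 groups together over 22832 probe sets. A gene was called where the adjusted p was under 0.05 (limma, Benjamini-Hochberg over all probe sets tested). None of the 9 genes was dim, a mean signal under 20. The lowest mean over all mice was 69.9, for Irs2.

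Arrays of a group resembled each other, with a median correlation of log2 signals of 0.975 within MCD+HF+Met, 0.981 within MCD+HF and 0.976 within NC. The correlation was 0.970 between MCD+HF+Met and MCD+HF, 0.915 between MCD+HF+Met and NC and 0.899 between MCD+HF and NC. Hepatocyte markers were bright in every liver, with a summed signal of 53475 to 67182 in MCD+HF+Met, 48522 to 61044 in MCD+HF and 94136 to 111483 in NC. Of 9 hepatocyte markers 8 fell in MCD+HF against NC (median -0.93), and none was called between MCD+HF+Met and MCD+HF. The summed signal of 10 stellate cell markers was 5228 to 7968 in MCD+HF+Met, 7211 to 9076 in MCD+HF and 2146 to 2855 in NC. That of 10 macrophage markers was 3044 to 5697 in MCD+HF+Met, 5965 to 7755 in MCD+HF and 3983 to 5057 in NC. No marker of these 3 lists was listed at 0. Of the other lists, 4 of 4 cholangiocyte and 2 of 2 neutrophil markers tested rose in MCD+HF against NC. A further 1 cholangiocyte and 2 neutrophil markers were dim and not tested. In NC the 4 cholangiocyte markers had means of only 13.93 (Krt7), 8.575 (Krt19), 6.325 (Epcam) and 12.25 (Sox9). Probe sets were filtered by the mean over all mice, so these were tested only because the MCD+HF groups were brighter. The count of 4 of 4 was thus largely set by the filter. Of the endothelial markers 2 of 8 rose and 3 fell, and all 7 T and B cell markers were dim. Whole livers were measured, so fewer cells of a type and less RNA per cell cannot be told apart in any value below, and the part of these markers in the results was not tested. RNA quality, read as the signal ratio between the 3' and 5' ends of the beta-actin transcript, was 1.62 to 1.86 in MCD+HF+Met, 1.46 to 1.62 in MCD+HF and 1.54 to 1.88 in NC, and its part was not tested either.

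With the MCD+HF diet, 4 of the 9 genes changed against NC: Irs2, Irs1 and Akt1 rose and Insr fell. That is 44.4% of the members, close to the 48.2% of all 11099 genes tested that were called in this comparison, so the share is near that of the liver as a whole. In MCD+HF+Met against NC, 2 of 9 were called, Akt1 higher and Insr lower, beside 44.2% of all genes. With metformin added to the diet, none of the 9 was called by limma, beside 3.97% of all genes. Unadjusted p-values were under 0.05 for 4 of them (Irs1, Irs2, Akt2 and Foxo3), beside 19.8% of all genes. The methods' t-test gave an unadjusted p under 0.05 for Akt2 alone and, after adjustment, called none. Groups did not overlap for 1 of the 9 genes in MCD+HF+Met against MCD+HF (12.6% of all genes), for 4 in MCD+HF against NC (45.1%) and for 2 in MCD+HF+Met against NC (39.7%). The median change of the 9 was 0.04 in MCD+HF+Met against MCD+HF, 0.03 in MCD+HF against NC and -0.03 in MCD+HF+Met against NC, where the medians of all genes were 0.01, 0.05 and 0.06. The comparisons share mice: the MCD+HF+Met group stands in the first and the third, the MCD+HF group in the first and the second, and the NC group in the second and the third.

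**Figure D1:**
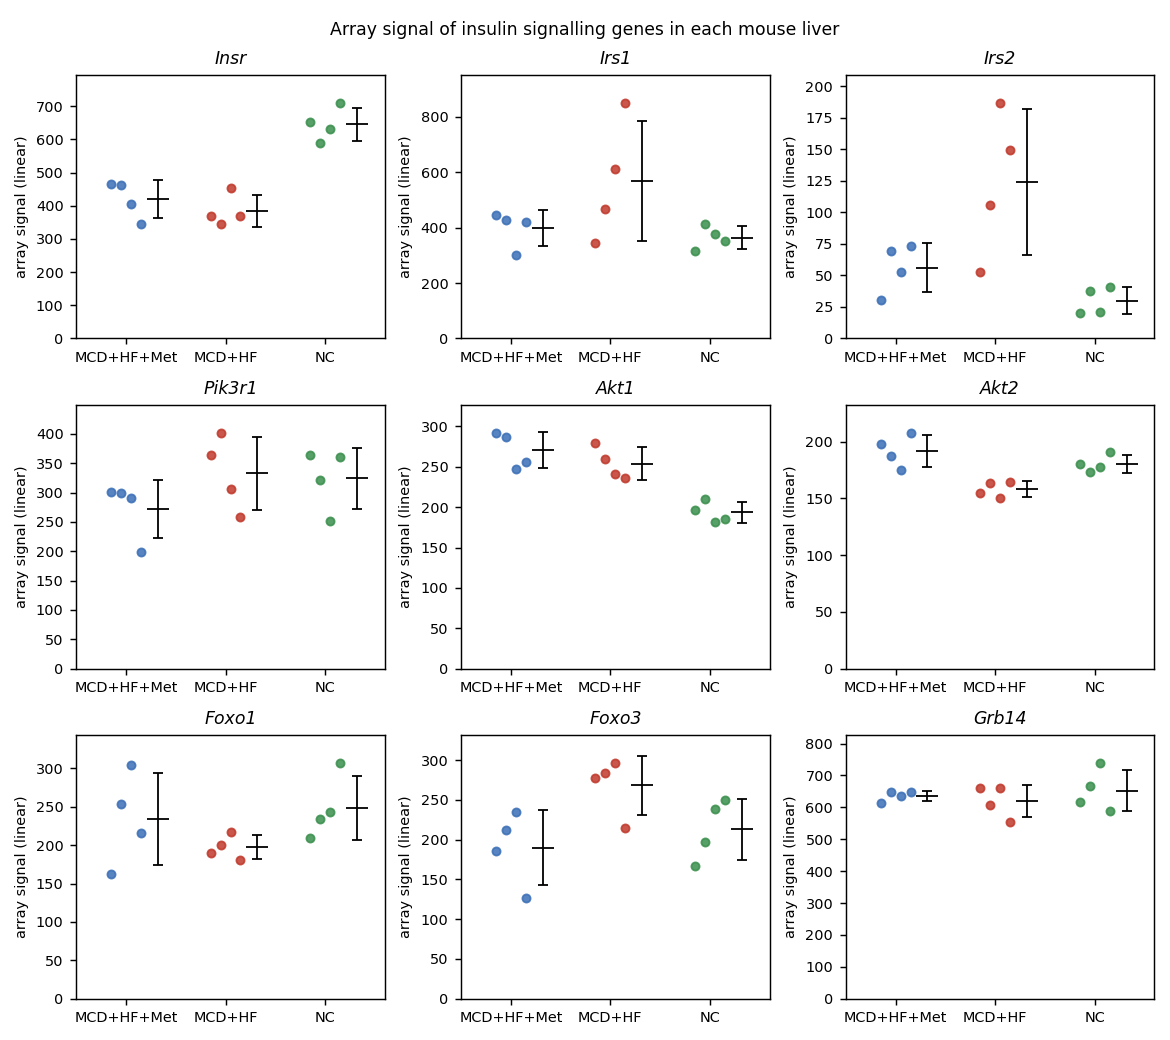
Array signal (linear scale, arrays scaled to an average of 100) of the 9 genes in each of 12 livers, in MCD+HF+Met, MCD+HF and NC from left to right; points are mice, and the bar gives the mean and SD of 4 mice. Insr in the 8 mice on either MCD+HF diet lay between 343.6 and 466.1, below the 588.3 to 710.3 of the NC mice, and Irs2 in MCD+HF reached 186.7.

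**Figure D2:**
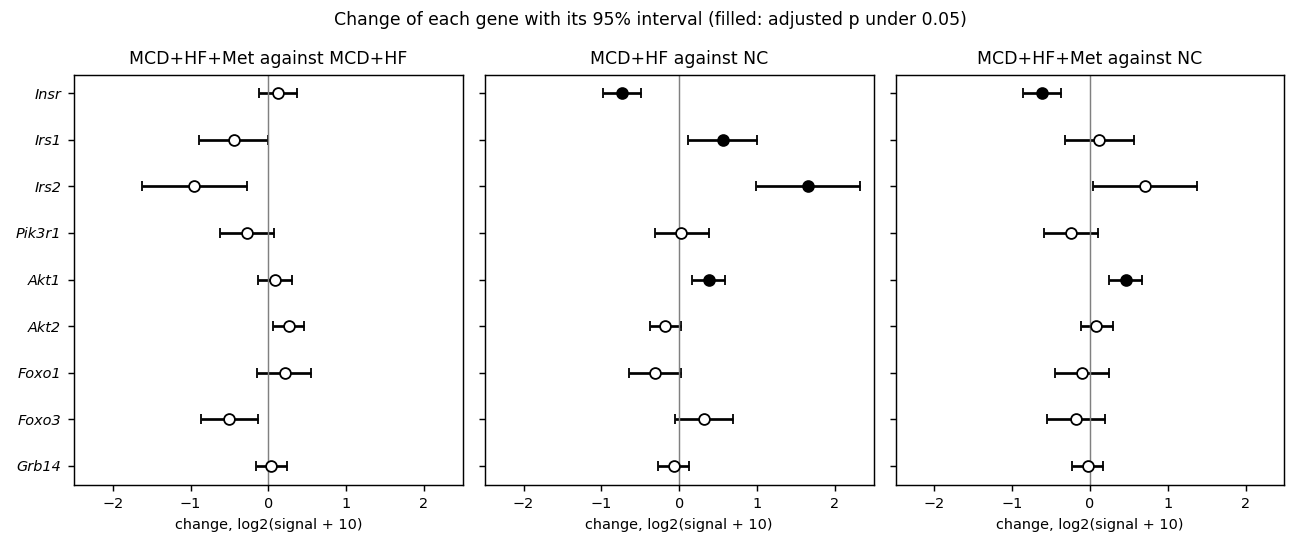
Change of each gene on the log2(signal + 10) scale with its 95% interval, for MCD+HF+Met against MCD+HF, MCD+HF against NC and MCD+HF+Met against NC; filled circles were called (adjusted p under 0.05, limma). Filled circles are at Insr, Irs1, Irs2 and Akt1 in MCD+HF against NC, at Insr and Akt1 in MCD+HF+Met against NC, and at no gene in MCD+HF+Met against MCD+HF.

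Insr encodes the insulin receptor, a receptor tyrosine kinase. Its signal was 466.1, 462.5, 403.7 and 346.2 in MCD+HF+Met, against 369.3, 343.6, 452.5 and 369.9 in MCD+HF and 651.0, 588.3, 630.7 and 710.3 in NC. All 8 mice on the MCD+HF diet, with or without metformin, lay below all 4 chow-fed mice, and the groups with and without metformin overlapped. Insr averaged 383.8 ± 47.4 in MCD+HF and 645.1 ± 50.7 in NC (SD, n = 4 each), and its log2 change was -0.74 (95% interval -0.98 to -0.49, adjusted p = 9.2e-05 by limma). In MCD+HF+Met it averaged 419.6 ± 56.7 (SD, n = 4) and was lower than in NC by a log2 change of -0.62 (adjusted p = 5.6e-04 by limma). Between MCD+HF+Met and MCD+HF the change was 0.12 (95% interval -0.12 to 0.37, adjusted p = 0.609 by limma). The other probe sets for Insr had mean signals of 14.8 and 13.0, below the minimum for testing, so the fall rests on 1 probe set. Hepatocyte markers fell in the same comparison, as given above, and whether the fall of Insr was separate from theirs was not tested.

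IRS1 and IRS2 are adaptor proteins that the activated receptor phosphorylates, and in mouse liver Irs2 transcription is known to rise in fasting and to be repressed by insulin. Each gene was read by 1 probe set. Irs2 had the widest span of group means among the 9 genes, 1.66 on the log2 scale. Its signal was 30.1, 69.0, 52.3 and 73.1 in MCD+HF+Met, against 52.4, 105.9, 186.7 and 149.6 in MCD+HF and 20.3, 37.7, 21.1 and 40.7 in NC. Every MCD+HF mouse lay above every NC mouse, while in MCD+HF+Met 3 of 4 mice lay above the NC group and replicate 1 lay within it. Irs2 averaged 123.7 ± 57.9 in MCD+HF and 29.9 ± 10.8 in NC (SD, n = 4 each), a log2 change of 1.66 (95% interval 0.99 to 2.33, adjusted p = 5.0e-04 by limma). With metformin it averaged 56.1 ± 19.5 (SD, n = 4), and the log2 change against MCD+HF was -0.95 (95% interval -1.62 to -0.28), which did not pass adjustment (adjusted p = 0.108 by limma, exact permutation p = 0.0857). Of the MCD+HF mice 3 of 4 lay above all MCD+HF+Met mice, and replicate 1, at 52.4, lay among them. Without that mouse the change was -1.27 and was called (adjusted p = 0.0235 by limma), as it was with the replicate number as a block (adjusted p = 0.0353 by limma), and over all alternatives the adjusted p ran between 0.0235 and 0.322. The replicate numbers did not pair the mice, so this block stands for no known feature of the design. Against NC the change in MCD+HF+Met was 0.71 (95% interval 0.04 to 1.38, adjusted p = 0.0844 by limma). It too was called without MCD+HF replicate 1 (adjusted p = 0.0338 by limma), without MCD+HF+Met replicate 1 (adjusted p = 0.0318 by limma), in a model of these 2 groups alone (adjusted p = 0.0425 by limma) and with the replicate number as a block (adjusted p = 0.0199 by limma).

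Irs1 varied more between mice in MCD+HF than in either other group. Its signal was 444.0, 428.7, 299.8 and 421.6 in MCD+HF+Met, against 345.0, 468.4, 612.3 and 851.0 in MCD+HF and 316.2, 414.6, 375.7 and 350.0 in NC. In MCD+HF 3 of 4 mice lay above every mouse of both other groups, and replicate 1, the lowest MCD+HF mouse for Irs2 as well, lay within the NC range. Irs1 averaged 569.2 ± 217.3 in MCD+HF and 364.1 ± 41.6 in NC (SD, n = 4 each), a log2 change of 0.56 (95% interval 0.12 to 1.0, adjusted p = 0.0392 by limma), with groups that overlapped (exact permutation p = 0.114). The call was lost without MCD+HF replicate 3 (0.50, adjusted p = 0.097 by limma) or MCD+HF replicate 4 (0.34, adjusted p = 0.137 by limma), and without NC replicate 1, 3 or 4 (adjusted p = 0.0996, 0.060 and 0.0729 by limma). The methods' t-test after adjustment did not call it either (adjusted p = 0.17). The coefficient of variation was 38.2% in MCD+HF and 11.4% in NC. Irs1 averaged 398.5 ± 66.5 in MCD+HF+Met (SD, n = 4), with a log2 change of -0.44 against MCD+HF (adjusted p = 0.261 by limma) and 0.12 against NC (adjusted p = 0.684 by limma).

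Promoter sequences are shown for Irs1 and Irs2 because the 2 substrate genes both rose in MCD+HF against NC and their promoters held the same pair of motifs. They are from RefSeq on the GRCm38.p6 build, 5′ to 3′ on the strand of the gene, and end at the base before the transcription start. Capitals mark the E-box CACGTG, which factors of the basic helix-loop-helix family such as SREBP and USF can bind, and TGTTTTG, the reverse complement of the insulin response sequence CAAAACA that FOXO proteins can bind. The Irs1 stretch is chr1:82291440-82291589 on the minus strand, and the Irs2 stretch is chr8:11008930-11009079 on the minus strand.
Irs1: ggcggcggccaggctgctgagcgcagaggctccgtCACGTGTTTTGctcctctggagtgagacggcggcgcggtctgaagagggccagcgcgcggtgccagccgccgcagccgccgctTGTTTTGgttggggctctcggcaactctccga
Irs2: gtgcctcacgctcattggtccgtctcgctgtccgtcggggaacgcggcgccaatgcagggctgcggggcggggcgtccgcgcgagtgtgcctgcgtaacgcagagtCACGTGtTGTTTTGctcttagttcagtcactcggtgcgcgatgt
In Irs2 the E-box began 44 bases before the start, and the insulin response sequence began 37 bases before it. In Irs1 the E-box began 115 bases before the start and overlapped a match that began at 111 bases, and a further match began at 32 bases. The search covered the 250 bases before each start on both strands. Of the 9 genes 8 had an entry, with 13 start sites in all, and of these 2 windows held the E-box and 2 the insulin response sequence, in each case those of Irs1 and Irs2. Among all 32851 windows of the table, 6.02% held the E-box, 5.56% the insulin response sequence and 0.295% both. The pair was counted because Irs1 and Irs2 held it, so this last share cannot say how unusual their match is. The forkhead motif GTAAACA was in 1 of the 13 windows, that of the most upstream Akt1 start, and in 3.17% of all windows. The cAMP response element TGACGTC was in 0 of the 13 and in 2.78% of all. These matches describe the letters only.

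Pik3r1 encodes the regulatory subunit p85-alpha, which joins the catalytic subunit of phosphatidylinositol 3-kinase to phosphorylated IRS proteins. Its signal was 301.5, 299.5, 290.9 and 198.9 in MCD+HF+Met, against 363.5, 401.4, 306.1 and 259.1 in MCD+HF and 363.9, 321.2, 251.7 and 360.3 in NC. All groups overlapped, and replicate 4 was the lowest mouse of both MCD+HF groups. The log2 change was -0.28 in MCD+HF+Met against MCD+HF (95% interval -0.62 to 0.07, adjusted p = 0.374 by limma) and 0.03 in MCD+HF against NC (95% interval -0.31 to 0.38, adjusted p = 0.897 by limma). Against NC it was -0.25 in MCD+HF+Met (adjusted p = 0.246 by limma). The 3 other probe sets for Pik3r1 had larger changes in that comparison, at -0.59, -0.72 and -0.81, and the last 2 were called lower (adjusted p = 0.0101 and 0.00383 by limma). Their mean signals were 121, 109 and 48.1, against 309.8 for the brightest, so the calls for Pik3r1 depended on which probe set was read.

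AKT1 and AKT2 are the serine/threonine kinases that pass the signal on, and AKT2 is the main form in insulin-regulated metabolism of liver. Akt1 read 291.9, 286.5, 247.5 and 256.3 in MCD+HF+Met, against 279.7, 259.8, 241.2 and 235.8 in MCD+HF and 196.5, 210.7, 181.7 and 184.8 in NC. All 8 mice on the MCD+HF diet lay above the 4 NC mice, the reverse of Insr. Akt1 averaged 254.1 ± 19.9 in MCD+HF and 193.4 ± 13.2 in NC (SD, n = 4 each), a log2 change of 0.38 (95% interval 0.16 to 0.59, adjusted p = 0.00636 by limma). It averaged 270.6 ± 21.9 in MCD+HF+Met (SD, n = 4), with a change of 0.46 against NC (adjusted p = 0.00169 by limma) and 0.09 against MCD+HF (95% interval -0.13 to 0.30, adjusted p = 0.689 by limma). A second probe set for Akt1, with a mean signal of 100.3, had a change of 0.25 in MCD+HF against NC (adjusted p = 0.188 by limma), and the dimmest one tested, with a mean of 33.3, had -0.36 (adjusted p = 0.259 by limma). The rise of Akt1 was therefore called on the brightest probe set only.

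Akt2 read 198.0, 187.4, 175.2 and 207.6 in MCD+HF+Met, against 154.5, 163.6, 150.7 and 164.3 in MCD+HF and 180.4, 172.9, 177.2 and 190.6 in NC. The 4 MCD+HF mice lay below all 8 others. It was the single member whose MCD+HF+Met and MCD+HF groups did not overlap, and it averaged 192.0 ± 13.9 in MCD+HF+Met and 158.3 ± 6.74 in MCD+HF (SD, n = 4 each). The log2 change was 0.26 (95% interval 0.06 to 0.46), with an adjusted p of 0.141 by limma and an exact permutation p of 0.0286, the smallest that 4 against 4 mice allow. In MCD+HF against NC, which averaged 180.3 ± 7.54 (SD, n = 4), it was -0.18 (95% interval -0.38 to 0.02, adjusted p = 0.144 by limma), and -0.28 after quantile normalization (adjusted p = 0.0239 by limma). The methods' t-test after adjustment called Akt2 lower there as well (adjusted p = 0.0183). A second Akt2 probe set, with a mean signal of 66.2, was called lower in MCD+HF against NC (-0.45, adjusted p = 0.0382 by limma). The dimmest one, with a mean of 24.1, was called higher (0.85, adjusted p = 0.00227 by limma) and was also higher in MCD+HF+Met against NC (0.95, adjusted p = 0.00114 by limma). With the diet the brightest and the second probe set for Akt2 had negative changes, and only this dimmest one had a positive change. All 3 had positive changes with metformin, at 0.26, 0.23 and 0.10, none of them called.

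**Figure D3:**
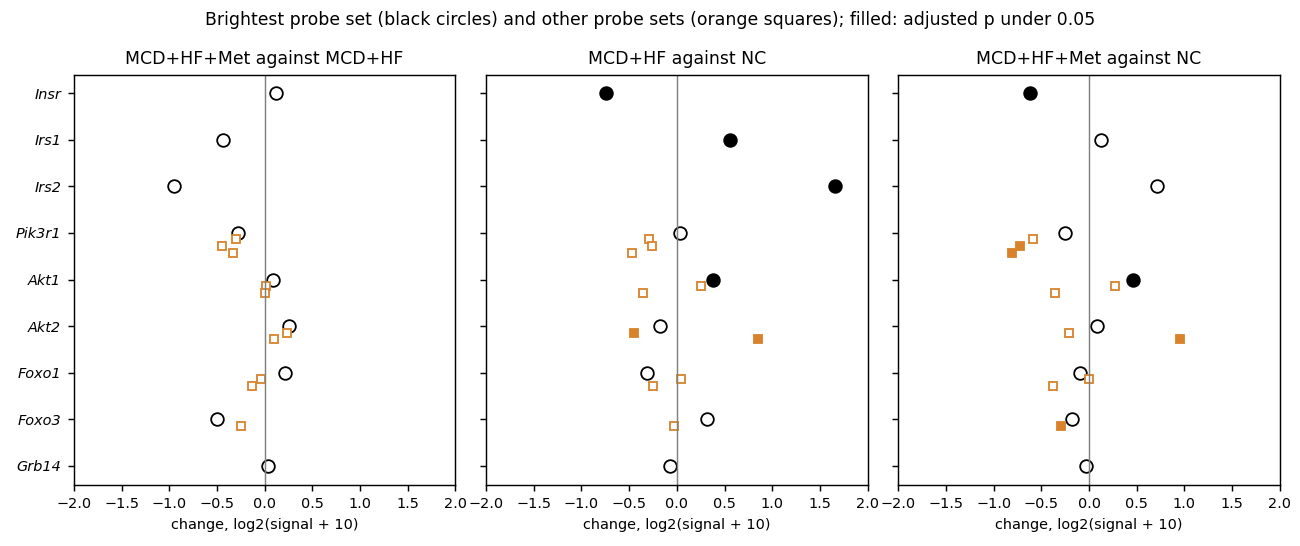
Change on the log2(signal + 10) scale of every probe set tested for the 9 genes, in MCD+HF+Met against MCD+HF, MCD+HF against NC and MCD+HF+Met against NC; black circles are the brightest probe set of a gene, orange squares the others, and filled symbols were called (adjusted p under 0.05, limma). The Akt2 squares at -0.45 and 0.85 in MCD+HF against NC lie on opposite sides of 0. The probe set at 0.85 averaged 11.6 in NC and was tested only because the MCD+HF groups were brighter.

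FOXO1 and FOXO3 are the transcription factors that AKT holds in the cytoplasm, and FOXO1 is known to drive gluconeogenic genes in fasted liver. Foxo3 read 186.0, 212.3, 234.9 and 126.4 in MCD+HF+Met, against 277.7, 283.8, 296.0 and 214.5 in MCD+HF and 167.0, 197.1, 238.4 and 250.2 in NC. In MCD+HF 3 of 4 mice lay above every mouse of both other groups, and replicate 4 lay within their ranges. Foxo3 averaged 189.9 ± 46.8 in MCD+HF+Met and 268.0 ± 36.5 in MCD+HF (SD, n = 4 each), a log2 change of -0.50 (95% interval -0.87 to -0.13) that did not pass adjustment (adjusted p = 0.126 by limma, exact permutation p = 0.0571). In MCD+HF against NC the change was 0.32 (95% interval -0.05 to 0.69, adjusted p = 0.147 by limma). A second Foxo3 probe set, with a mean signal of 182.0, had a change of -0.25 with metformin (adjusted p = 0.201 by limma) and -0.03 with the diet (adjusted p = 0.826 by limma), and was called lower in MCD+HF+Met against NC (-0.29, adjusted p = 0.041 by limma).

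Foxo1 read 162.2, 254.1, 303.9 and 215.5 in MCD+HF+Met, against 189.3, 200.0, 217.4 and 181.2 in MCD+HF and 209.6, 233.8, 243.3 and 306.6 in NC. The MCD+HF+Met mice spanned nearly the whole range of the other groups, and 3 of 4 MCD+HF mice lay below every NC mouse. The log2 change was 0.21 with metformin (95% interval -0.14 to 0.55, adjusted p = 0.525 by limma) and -0.31 in MCD+HF against NC (95% interval -0.65 to 0.03, adjusted p = 0.133 by limma). The next probe set was nearly as bright, with a mean signal of 219 beside 226, and had changes of -0.04 with metformin and 0.04 with the diet, neither called.

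Grb14 encodes an adaptor that binds the activated insulin receptor and inhibits its kinase. It was the flattest of the 9 genes. Its signal was 612.4, 648.8, 635.5 and 646.7 in MCD+HF+Met, against 661.0, 607.5, 659.2 and 554.7 in MCD+HF and 617.6, 666.5, 738.3 and 588.0 in NC. All groups overlapped, with means of 635.8 ± 16.7 in MCD+HF+Met, 620.6 ± 50.5 in MCD+HF and 652.6 ± 65.7 in NC (SD, n = 4 each). The log2 change was 0.04 with metformin (95% interval -0.16 to 0.24, adjusted p = 0.874 by limma) and -0.07 with the diet (95% interval -0.27 to 0.13, adjusted p = 0.575 by limma). Changes beyond -0.27 and 0.24 lay outside these intervals.

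Related genes were also compared within each mouse, as a difference of log2 values, which asks whether 2 genes of a family changed unequally. Foxo3 minus Foxo1 was 0.19, -0.25, -0.36 and -0.73 in MCD+HF+Met, against 0.53, 0.48, 0.43 and 0.23 in MCD+HF and -0.31, -0.24, -0.03 and -0.28 in NC. All MCD+HF mice lay above all others. The mean difference was -0.70 in MCD+HF+Met against MCD+HF and 0.63 in MCD+HF against NC, each with p = 0.0286 in a two-sided exact permutation test, the smallest p that 4 against 4 mice allow. Of the 9 tests of this kind 5 reached that p, which is 0.0514 after adjustment over the 9, so none passed. With the 5 other probe set pairs of Foxo3 and Foxo1 the metformin difference was negative but smaller, at -0.46 to -0.12, with an exact permutation p of 0.0571 to 0.314.

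Irs2 minus Irs1 was -3.50, -2.47, -2.31 and -2.38 in MCD+HF+Met, against -2.51, -2.05, -1.66 and -2.43 in MCD+HF and -3.43, -3.15, -3.63 and -2.83 in NC. Its mean was 1.1 higher in MCD+HF than in NC, with no overlap (exact permutation p = 0.0286, adjusted p = 0.0514), the difference being higher in every MCD+HF mouse than in every NC mouse. With metformin it was lower by a difference of -0.50 (exact permutation p = 0.257). Akt2 minus Akt1 differed by -0.55 in MCD+HF against NC and by -0.38 in MCD+HF+Met against NC (exact permutation p = 0.0286 and adjusted p = 0.0514 for each). The sign held in 5 of 9 probe set pairs of Akt2 and Akt1 in the first of these and in 4 of 9 in the second, so the sign of the Akt difference depended on the probe sets. Every pair with the dimmest Akt2 probe set, which read 8.3 to 17.7 in NC, had the other sign.

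**Figure D4:**
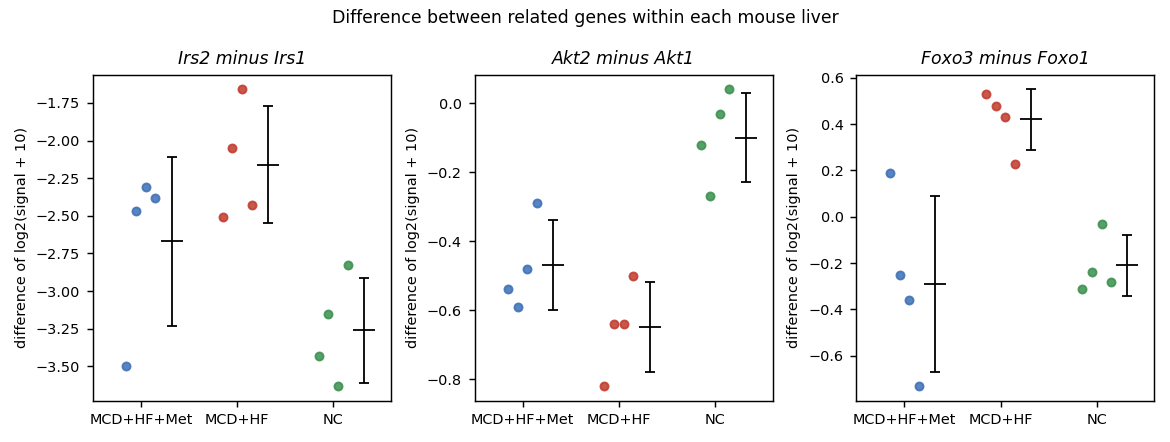
Difference of log2(signal + 10) between Irs2 and Irs1, Akt2 and Akt1, and Foxo3 and Foxo1 within each liver, in MCD+HF+Met, MCD+HF and NC from left to right; points are mice, and the bar gives the mean and SD of 4 mice. Foxo3 minus Foxo1 lay between 0.23 and 0.53 in MCD+HF and below that in all 8 other mice.

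The wider pathway was read from 7 lists of 68 textbook genes, of which 60 were named by a probe set and 56 were tested. In MCD+HF against NC 20 rose and 10 fell, which is 53.6% called beside 48.2% of all genes, of which 27.4% rose and 20.8% fell. With metformin 2 rose and 1 fell (5.36% called), where 1.63% of all genes rose and 2.34% fell. In MCD+HF+Met against NC 17 rose and 10 fell (48.2% called), where 25.6% of all genes rose and 18.6% fell. The shares were near those of the whole liver in each comparison.

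Among 13 tested inhibitors and phosphatases of the pathway 7 rose, 0 fell and 6 were not called in MCD+HF against NC. Of all genes 27.4% rose and 20.8% fell there, 48.2% being called. The median change was 0.31 beside 0.05 for all genes. The inhibitor Grb14 had a change of -0.07. Grb10, the close relative of Grb14 that also inhibits the insulin receptor, averaged 198.1 ± 25.0 in MCD+HF and 49.0 ± 8.67 in NC (SD, n = 4 each), a log2 change of 1.82 (adjusted p = 8.6e-08 by limma). Socs2, a suppressor of growth hormone signalling, averaged 511.7 ± 104.4 in MCD+HF and 120.7 ± 69.4 in NC (SD, n = 4 each), a change of 2.11 (adjusted p = 7.7e-06 by limma). Inpp5d, the lipid phosphatase SHIP1 of blood cells, changed by 0.82 and Phlpp2, a phosphatase of AKT, by 0.58 (adjusted p = 0.00176 and 0.0142 by limma). Macrophage markers also rose in this comparison (5 of 9 tested higher and 1 lower), and their part in the Inpp5d change was not tested. With metformin none of the 13 was called by limma, and the changes of Grb10, Socs2 and Inpp5d were -0.04, -0.14 and -0.47. The adjusted p was 0.174 for Inpp5d by limma.

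Among the receptor and adaptor genes 4 of 8 rose and 1 fell in MCD+HF against NC, beside 48.2% of all genes called. None was called with metformin, beside 3.97% of all genes. Igf1r, the receptor of insulin-like growth factor 1 and a close relative of Insr, read 76.5 to 118.6 in MCD+HF and 24.7 to 42.8 in NC. Its log2 change was 1.26 (adjusted p = 5.9e-05 by limma), opposite in sign to that of Insr. The adaptor genes Cbl and Crk rose by 0.98 and 0.39, and Sos1, the exchange factor of RAS, changed by -0.56 (with adjusted p = 5.4e-04, 0.00182 and 6.4e-04 by limma, in that order). Stellate cell markers rose in the same comparison (9 of 10, median 1.58, where 27.4% of all genes rose), and their part in the Igf1r change was not tested. Among them Col1a1 averaged 17.12 in NC and was tested only because the MCD+HF groups were brighter.

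Among the lipid kinase genes 2 of 7 rose and 2 fell with the diet, where 27.4% of all genes rose and 20.8% fell. Pik3cb, a catalytic subunit, and Pdpk1, the kinase that activates AKT, rose by 0.65 and 0.29. The groups overlapped for Pdpk1 (adjusted p = 0.0367 by limma, exact permutation p = 0.0857). Pik3cd, the catalytic subunit known best from leukocytes, and Pik3r2, the second p85 gene, changed by -0.87 and -0.36 (adjusted p = 3.1e-04 and 0.0295 by limma). Downstream of AKT 3 of 14 rose and 3 fell, beside the same shares of all genes. Mtor and Gsk3b, kinases of growth and of glycogen synthesis, rose by 0.63 and 0.74, and Deptor, an inhibitor of mTOR, changed by -0.56. Tbc1d4, a regulator of glucose transporter traffic, rose by 0.53 (adjusted p = 0.0421 by limma, exact permutation p = 0.114). Its groups overlapped, with 35.7 to 46.7 in MCD+HF and 15.6 to 45.8 in NC.

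With metformin the called pathway genes were Eif4ebp1, Ctsd and Pklr, where Eif4ebp1 was named after its value was seen. Eif4ebp1, the translation repressor 4E-BP1 that mTOR phosphorylates, averaged 740.0 ± 117.8 in MCD+HF+Met and 507.6 ± 60.6 in MCD+HF (SD, n = 4 each), a log2 change of 0.53 (adjusted p = 0.0205 by limma). Its change was 0.13 in MCD+HF against NC (adjusted p = 0.391 by limma), so the metformin group stood above both others. Leaving out 1 array at a time, the call for Eif4ebp1 was lost without MCD+HF replicate 1, MCD+HF replicate 2 or MCD+HF+Met replicate 2 (adjusted p up to 0.0763 by limma). Ctsd, the lysosomal protease cathepsin D, averaged 1534 ± 58.9 in MCD+HF+Met and 2200 ± 306 in MCD+HF (SD, n = 4 each), and fell with a log2 change of -0.51 (adjusted p = 0.0124 by limma, and 0.057 without MCD+HF replicate 2). Ctsd had risen in MCD+HF against NC by a log2 change of 1.34 (adjusted p = 4.5e-08 by limma). In MCD+HF+Met it stayed above NC, by 0.83 (adjusted p = 8.1e-06 by limma). It stood in the list of insulin clearance, where Ceacam1, which promotes insulin uptake into hepatocytes, fell in MCD+HF against NC by a log2 change of -0.54 (adjusted p = 4.5e-04 by limma). Of 9 macrophage markers tested 3 were called lower with metformin and 6 were not called, and their part in the Ctsd change was not tested.

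Several genes downstream of the pathway in liver had larger log2 changes than any of the 9 components. Of 6 genes that FOXO1 is known to raise, 3 rose, 1 fell and 2 were not called in MCD+HF against NC. Of all genes 27.4% rose and 20.8% fell there. Pdk4, Igfbp1 and Ppargc1a rose, and Pck1, the gluconeogenic enzyme PEPCK, changed by -0.66 (adjusted p = 1.4e-04 by limma). Pdk4, the kinase that switches off pyruvate dehydrogenase in fasting, averaged 3777 ± 1074 in MCD+HF and 36.8 ± 8.31 in NC (SD, n = 4 each), a change of 6.31 (adjusted p = 5.9e-11 by limma). Igfbp1, a secreted binding protein that insulin represses, changed by 2.27 and Ppargc1a, the coactivator PGC-1alpha, by 1.54 (adjusted p = 1.0e-05 and 0.00135 by limma). The groups overlapped for Ppargc1a (exact permutation p = 0.0571), with 205.6 to 982.5 in MCD+HF and 129.6 to 211.0 in NC. With metformin none of the 6 was called by limma, beside 3.97% of all genes. Pdk4 and Ppargc1a had changes of -0.72 and -0.86 with adjusted p = 0.13 and 0.166 by limma.

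Of 5 genes tested that insulin is known to raise, 0 rose, 2 fell and 3 were not called with the diet. Of all genes 27.4% rose and 20.8% fell there. The genes that fell were Scd1, which makes monounsaturated fatty acids, and Srebf1, which encodes the lipogenic factor SREBP-1. Scd1 averaged 150 ± 71.6 in MCD+HF and 12640 ± 1069 in NC (SD, n = 4 each), a log2 change of -6.42 (adjusted p = 2.8e-08 by limma), and Srebf1 changed by -1.23 (adjusted p = 1.2e-04 by limma). With metformin 1 of the 5 rose and 4 were not called, beside 3.97% of all genes called. Pklr, liver pyruvate kinase, rose to 403.5 ± 97.7 in MCD+HF+Met, against 240.4 ± 29.9 in MCD+HF (SD, n = 4 each), a change of 0.70 (adjusted p = 0.034 by limma). The call was lost when any of 6 arrays was left out, replicates 1, 2 and 3 of either MCD+HF group, with adjusted p up to 0.111 by limma. Srebf1 and Scd1 had changes of 0.69 and 1.43 with metformin that did not pass adjustment (adjusted p = 0.0692 and 0.0966 by limma).

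**Figure D5:**
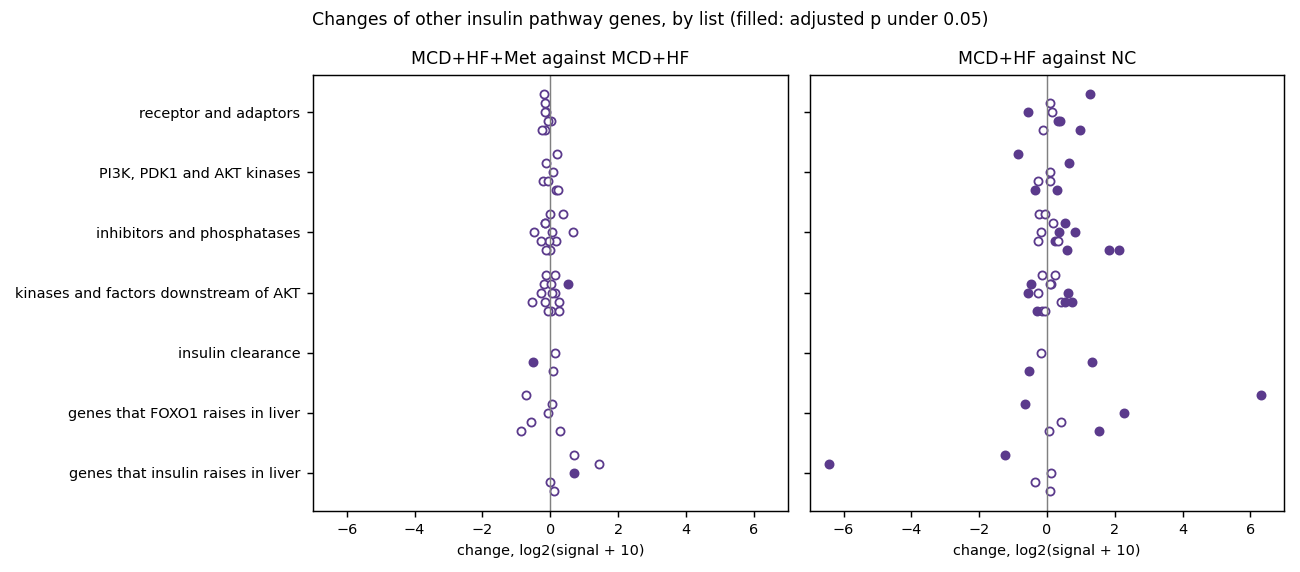
Change on the log2(signal + 10) scale of 56 other insulin pathway genes in 7 lists, in MCD+HF+Met against MCD+HF and in MCD+HF against NC; each circle is a gene and filled circles were called (adjusted p under 0.05, limma). In MCD+HF against NC the filled circles of the inhibitor list all lie above 0, and Pdk4 at 6.31 and Scd1 at -6.42 lie farthest out.

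The genes whose pattern over the 12 livers lay nearest to 3 of the members were sought as the smallest root mean square difference of log2 values, each gene centred on its own mean. Nearest to Irs2 were Plk3 (0.26), Trp53inp1 (0.29) and Ppargc1a (0.30), where Irs2 itself varied by 0.83 around its mean. Ppargc1a, as Irs2, was highest in MCD+HF, with 263.0 ± 25.0 in MCD+HF+Met, 568 ± 346 in MCD+HF and 162 ± 35.0 in NC (SD, n = 4 each). Nearest to Insr were Mia3 (0.09), Galt (0.10) and Aldh2 (0.11), where Insr varied by 0.35. Their mean signals were lower in both MCD+HF groups than in NC. Nearest to Irs1 were Crls1 (0.21), Zswim7 (0.23) and Ghitm (0.23), against a variation of 0.39 for Irs1. The 12 arrays share the group differences, so the likeness is a description over these livers.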

How the data were processed

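Liver RNA of 12 mice was hybridised to Affymetrix Mouse Genome 430 2.0 arrays, 1 array per mouse. The authors obtained signal intensities with GCOS under default settings and scaled the average of all probe sets to 100; the deposited table holds these intensities for 45101 probe sets, 64 of them controls, on a linear scale. Each array had a mean of 100.0 after leaving out 2% in each tail. Array number limits the precision. GCOS detection and change calls were not used here.

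Log2(signal + 10) was computed without further normalization. Controls and probe sets with a mean signal under 20 were left out, and 22832 were tested with limma 3.58.1 in R 4.3.3 (lmFit, eBayes with a variance trend, 1 model of 3 groups, Benjamini-Hochberg adjustment over all of them). The methods compare groups with an unadjusted t-test and a 1.5-fold rule, which was an alternative. Differences between related genes were tested with a two-sided exact permutation test over 8 mice (scipy 1.17.1). The limma script was tested on simulated data. Replicates were separate mice.

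Probe sets were named from the platform annotation, where 34958 had 1 gene symbol, 932 several and 9160 none. For 34754 of those with 1 symbol, the symbol was taken from RefSeq (GRCm38.p6) by gene identifier, whether or not it differed. Of the probe sets for the 9 genes 25 named the gene alone, and 1 that named several was left out. The brightest represented a gene, and an _x_at probe set only where there was no other. Insr had no entry in the promoter table, and some genes of the lists are not reported here.

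The 9 genes, the lists and the tests were chosen with earlier results of these data known. The genes named are every member, up to 4 called genes of each list with the largest change with the diet or metformin, and the 3 genes nearest in pattern to the 3 members with the widest span. Alternatives were other offsets (1 or 32), other filters (none, or a minimum of 50), quantile normalization, a block on the replicate number, other variance settings, models without the group not compared, arrays left out in turn, and other probe sets. Probe set pairs of related genes, and single arrays left out for 3 pathway genes, were added after seeing the data. The replicate numbers did not pair the mice. Figures were drawn with matplotlib 3.10.9.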

Additional observations from a re-analysis of the deposited data

Results flagged for a closer look

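Among the 27 groups of 4 mice formed by the 9 genes, 2 held a mouse whose distance to the next exceeded Dixon's 95% critical value, as a share of the group's range. Chance flags about 1 in 20 groups. In MCD+HF+Met, replicate 3 was the lowest for Irs1 with a signal of 299.8, where the other mice of the group had 421.6 to 444.0, and replicate 4 was the lowest for Pik3r1 with 198.9, where the others had 290.9 to 301.5. Without these mice neither gene was called in any comparison that the mouse entered.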

How the results depend on the processing

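The 27 results of the 9 genes (3 comparisons each) were recomputed under 678 alternatives. The threshold of 0.05 was set on the adjusted p, but on the unadjusted p for the methods' unadjusted t-test and the exact permutation test. A p under 0.05 in those tests is not a call as defined above. Of the 678, 629 kept their direction and their side of the threshold, 13 moved above it, 18 moved below it and 18 turned the sign. Of these 18, 11 were other probe sets: -0.36 for Akt1 in MCD+HF against NC, -0.36 for Akt1 in MCD+HF+Met against NC, 0.85 for Akt2 in MCD+HF against NC, -0.21 for Akt2 in MCD+HF+Met against NC, -0.29, -0.26 and -0.47 for Pik3r1 in MCD+HF against NC, -0.04 and -0.13 for Foxo1 with metformin, 0.04 for Foxo1 in MCD+HF against NC, and -0.03 for Foxo3 in MCD+HF against NC. Quantile normalization turned 1, Pik3r1 in MCD+HF against NC (-0.03). Leaving out 1 array turned 6, within ranges of -0.08 to 0.14 for Pik3r1 in MCD+HF against NC, -0.24 to 0.05 for Foxo1 in MCD+HF+Met against NC, and -0.01 to 0.07 with metformin and -0.08 to 0.03 in MCD+HF+Met against NC for Grb14. The 2 for Akt1 were the only ones of the 18 whose gene was called in that comparison. For Insr and Irs2 in MCD+HF against NC, and for Insr in MCD+HF+Met against NC, the p stayed under the threshold in all alternatives. For Irs1 in MCD+HF against NC it stayed under the threshold in 13 of 24. The call of Irs1 was lost, among others, with no filter (adjusted p = 0.0586 by limma) and with quantile normalization (adjusted p = 0.0529 by limma). Quantile normalization moved the median change of all genes to 0.03 in MCD+HF+Met against MCD+HF, -0.01 in MCD+HF against NC and 0.03 in MCD+HF+Met against NC.

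The count of the 9 genes called with metformin was 0, and 0 to 1 with 1 array left out (Irs2 without MCD+HF replicate 1). With the replicate number as a block it was 1, again Irs2 (adjusted p = 0.0353 by limma). This replicate block called 725 probe sets with metformin, 9941 in MCD+HF against NC and 8980 in MCD+HF+Met against NC. Mice of the same number deviated together with a correlation of -0.13 to 0.25, and 3 of 12 arrays were nearest to their own number.

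Over all probe sets limma called 786 with metformin, against 476 with no filter, 8 with the methods' t-test after adjustment and 898 (218 higher, 680 lower) by the methods' unadjusted 1.5-fold rule. With 1 array left out the count was 254 (without MCD+HF replicate 2) to 837, and 297 without MCD+HF+Met replicate 2. In MCD+HF against NC it called 9999, with 8581 to 10337 after leaving out 1 array and 6073 by the methods' rule. In MCD+HF+Met against NC it called 9057, with 7918 to 8975 after leaving out 1 array and 5259 by that rule. The cause of these differences was not tested.

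With other probe set pairs, Akt2 minus Akt1 turned to 0.18, 0.48, 0.61 and 1.21 in MCD+HF against NC and to 0.15, 0.45, 0.49, 0.68 and 1.31 in MCD+HF+Met against NC. It lost an exact p under 0.05 at -0.69 and -0.09 in MCD+HF against NC, and at -0.48 and -0.19 in MCD+HF+Met against NC. The turns to 0.48, 0.61 and 1.21, and to 0.49, 0.68 and 1.31, used the dimmest Akt2 probe set, which read 8.3 to 17.7 in NC. Foxo3 minus Foxo1 turned to -0.07 in MCD+HF against NC and lost it there at 0.28, 0.57 and 0.21, and with metformin at -0.46, -0.37, -0.21, -0.12 and -0.46. In MCD+HF+Met against NC it turned to 0.20 and 0.09 with other pairs, and ran between -0.23 and 0.07 with 1 array left out.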
